A study of Rattus norvegicus with 36 samples.

Results

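The proteasome genes described here were the 33 probes, of 21792 on the array, whose gene symbol begins with Psm, a subunit letter from a to g and a number, with the immunoproteasome and activator genes Psmb8, Psmb9, Psmb10, Psme1 and Psme2 left out. Each of the 33 genes had 1 probe. They covered 7 alpha ring genes (Psma1 to Psma7), 7 beta ring genes (Psmb1 to Psmb7), 6 ATPases of the regulatory particle (Psmc1 to Psmc6), 10 of its other subunits and 2 assembly chaperones (Psmd5 and Psmd9). The last, Psmc3ip, met the rule by its name although it encodes a meiotic recombination factor and no proteasome subunit, which left 32 proteasome genes.

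The study measured RNA on Illumina rat bead arrays in lung, in cells of the bronchoalveolar lavage fluid (BALF) and in blood of 12 male Fisher (CDF) 344 rats. The labels give the rats an age of about 3 months, which cannot be their age at death 44 weeks after exposure. 6 rats had inhaled crystalline silica at 15 mg/m3 for 6 hours a day on 5 days, and 6 controls had inhaled air. All were killed 44 weeks after the last exposure, and each rat gave 1 array per tissue, 36 in all. RNA came from whole tissue or from all lavage cells, so that a change in cell makeup and a change in RNA per cell cannot be told apart.

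The proteasome degrades proteins that carry ubiquitin. Its core particle is a barrel in which rings of alpha subunits form the gates and rings of beta subunits hold the active sites: Psmb6 (caspase-like), Psmb7 (trypsin-like) and Psmb5 (chymotrypsin-like). The regulatory particle caps the barrel. Its base unfolds the substrate with a ring of ATPases and binds ubiquitin through subunits such as Psmd2 and Psmd4, and its lid removes the ubiquitin chain. In cells exposed to interferon, Psmb9, Psmb10 and Psmb8 take the places of Psmb6, Psmb7 and Psmb5. In human and mouse cells the transcription factor Nfe2l1 raises many of these genes together when proteasome capacity is short, through antioxidant response elements in their promoters.

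Promoters were found for 30 of the 33 genes in RefSeq (build GRCr8), as 250 bases before to 50 after the annotated start. The stretches below are upstream of the start, read 5′ to 3′ on the gene's strand. Psmd9, Psmb6 and Psmb2, which rose in lavage cells, are shown with Psmb5, which did not pass the test there, with matches to TGACNNNGC on either strand in capitals.
Psmd9 (chr12:39018330-39018399, minus strand): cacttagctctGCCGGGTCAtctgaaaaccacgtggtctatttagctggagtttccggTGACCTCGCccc
Psmb6 (chr10:55737828-55737887, plus strand): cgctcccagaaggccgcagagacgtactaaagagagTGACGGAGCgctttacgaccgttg
Psmb2 (chr5:144254968-144255027, plus strand): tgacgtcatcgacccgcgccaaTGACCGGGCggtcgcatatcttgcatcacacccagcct
Psmb5 (chr15:32047410-32047469, minus strand): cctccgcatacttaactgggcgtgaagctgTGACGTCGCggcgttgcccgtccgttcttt
Psmd2, the gene that fell in lavage cells, is shown with its match to the looser TGANNNNGC (which includes every TGACNNNGC), and Psmc1, which rose, with no match in the stretch.
Psmd2 (chr11:93763484-93763543, minus strand): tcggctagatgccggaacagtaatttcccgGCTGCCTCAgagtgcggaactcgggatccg
Psmc1 (chr6:125122437-125122496, plus strand): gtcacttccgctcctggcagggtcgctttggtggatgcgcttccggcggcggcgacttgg
TGACNNNGC was in 7 of the 30 promoters (23.3%), against 12.2% of 27457 promoters of all genes. The looser form was in 63.3% of the 30 promoters, that of Psmc3ip among them, and in 40.4% of all. The NF-Y box CCAAT was in 53.3% against 37.7%, and the GC box GGGCGG in 70.0% against 34.9%, each on either strand. Of the 16 matched genes that rose in lavage cells, 4 held TGACNNNGC, 10 the looser form, 8 CCAAT and 10 GGGCGG. These matches describe letters in the window, and no binding was measured.

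Levels below are log2 intensities after background correction and quantile normalization within a tissue. A probe was tested where at least 6 of the 12 arrays detected it, and a gene was said to rise or fall at an adjusted p under 0.05 (limma, Benjamini-Hochberg over all tested probes). All 33 probes were tested in lung and in BALF cells, and 29 in blood. Psma3, Psmc6, Psmd8 and Psmc3ip lay close to background in every tissue, and these 4 were the ones left out in blood. Each tissue's arrays correlated at 0.981 or more within a group. Lung arrays detected 10974 to 11607 probes, BALF arrays 9229 to 9773 and blood arrays 7244 to 8861. Blood signal was also dimmer, with a 95th percentile of raw intensity of 514 to 1104 against 2031 to 2980 in the other tissues.

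In lavage cells 19 of the 33 genes rose after silica and 1, Psmd2, fell. Among all 9564 probes tested, 15.2% were higher and 18.1% lower. The median change of the 33 genes was 0.19 on the log2 scale against -0.0057 for all tested probes, and 30 of 33 changes were positive. In 12 genes every silica array lay above every air array, a pattern found in 9.04% of all tested probes, and in 1 gene every silica array lay below (9.67%). Many proteasome genes are strongly expressed, so the bright probes were also counted on their own: of those with a mean level of 10 or more, 15 of 22 proteasome genes (68.2%) were higher against 21.3% of 1858 probes.

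**Figure D1:**
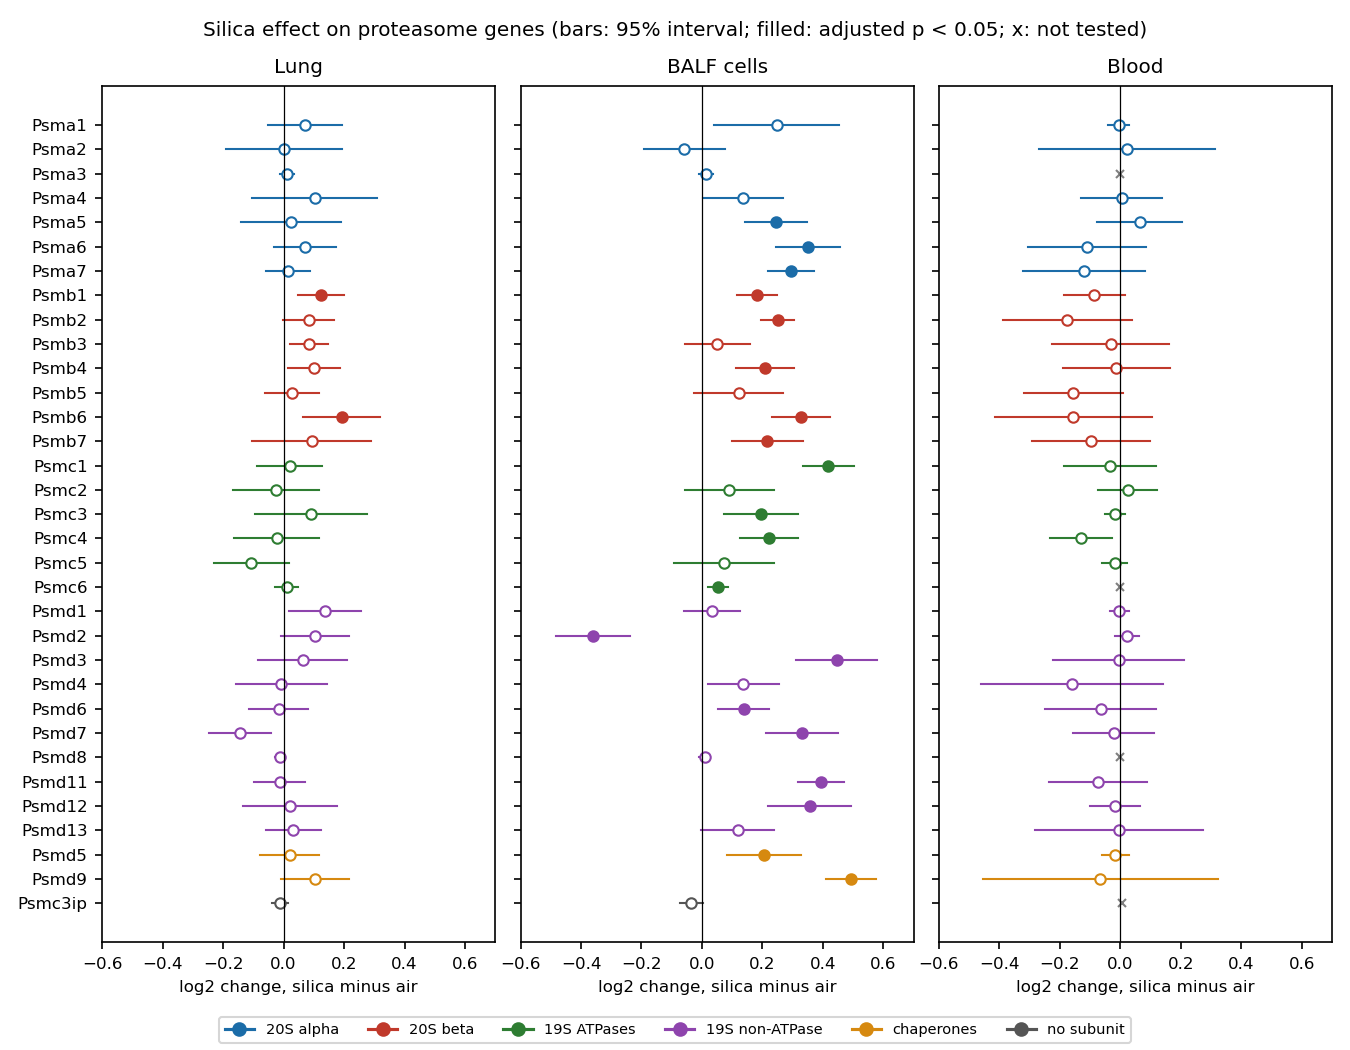
Log2 change, silica minus air, of the 33 genes in lung, BALF cells and blood, ordered by role and coloured by it. Points are limma estimates, bars are 95% confidence intervals, filled points passed at an adjusted p under 0.05 and crosses were not tested. In BALF cells 19 filled points lie to the right of 0 and 1, Psmd2, to the left. Lung has 2 filled points and blood none.

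Among the genes of the regulatory particle and its assembly chaperones, the change was largest in Psmd9, a chaperone that escorts ATPase subunits during assembly. Its level ran from 8.92 to 9.16 in air rats (median 8.98) and from 9.43 to 9.54 in silica rats (median 9.50). The groups did not overlap, and Psmd9 rose by 0.49 ± 0.038 (SE, limma adjusted p = 4.49e-06, n = 6 per group). The other chaperone measured, Psmd5, also rose, by 0.21 (limma adjusted p = 0.0148), with overlapping groups. Psmd3, a structural subunit of the lid, ran from 11.70 to 12.09 in air rats (median 11.96) and from 12.34 to 12.46 in silica rats (median 12.38). It rose by 0.45 ± 0.061 (SE, limma adjusted p = 0.000236), and its air arrays were spread more widely than its silica arrays.

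Psmc1, an ATPase of the base, ran from 12.46 to 12.66 in air rats (median 12.58) and from 12.85 to 13.02 in silica rats (median 13.01). It rose by 0.42 ± 0.039 (SE, limma adjusted p = 1.44e-05), and the groups were apart. Psmc3, Psmc4 and Psmc6 rose as well, by 0.19, 0.22 and 0.054, while Psmc2 (0.090) and Psmc5 (0.072) did not pass. The probe of Psmc6 was dim, at 7.38 to 7.51 over the 12 arrays, so that its small change lies just above background. ATPases thus had 4 of 6 genes higher.

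Psmd11, a lid subunit whose level limits assembly of the whole complex in human stem cells, ran from 12.14 to 12.35 in air rats (median 12.21) and from 12.56 to 12.70 in silica rats (median 12.62). It rose by 0.39 ± 0.035 (SE, limma adjusted p = 1.15e-05) with no overlap. Psmd12, a further lid subunit, ran from 9.76 to 10.03 (median 9.92) in air rats and from 10.10 to 10.40 (median 10.28) in silica rats, a rise of 0.36 ± 0.062 (SE, limma adjusted p = 0.00115). Psmd7, the partner of the lid's deubiquitinating enzyme, ran from 10.11 to 10.50 (median 10.36) in air rats and from 10.59 to 10.76 (median 10.66) in silica rats. It rose by 0.33 ± 0.054 (SE, limma adjusted p = 0.000757), again without overlap. Psmd6 rose by 0.14, and Psmd1, Psmd4, Psmd8 and Psmd13 did not pass, with values of 0.032, 0.14, 0.0092 and 0.12.

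Psmd2 went the other way. It encodes the base scaffold that receives ubiquitin shuttle proteins. Its level ran from 11.66 to 11.99 in air rats (median 11.79) and from 11.28 to 11.51 in silica rats (median 11.48), so that every silica array lay below every air array. It fell by 0.36 on the log2 scale, with an SE of 0.056 (limma adjusted p = 0.000546). Psmd1, the other large scaffold of the base, changed by 0.032 and did not pass. The 10 lid and non-ATPase base genes therefore had 5 higher and 1 lower.

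In the core particle 3 of 7 alpha ring genes and 5 of 7 beta ring genes rose. Psma6 ran from 12.27 to 12.51 in air rats (median 12.43) and from 12.63 to 12.86 in silica rats (median 12.76), a rise of 0.35 ± 0.048 (SE, limma adjusted p = 0.000239). Psma7 and Psma5, also of the gate-forming ring, rose by 0.29 and 0.24, all 3 with groups apart. Psma1 changed by a similar 0.25 but had wider silica values and did not pass (limma adjusted p = 0.0637). Psma2 changed by -0.059 and Psma4 by 0.14, neither passing.

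The 3 catalytic genes did not move alike in the test. Psmb6 ran from 11.13 to 11.44 in air rats (median 11.36) and from 11.64 to 11.69 in silica rats (median 11.66), a rise of 0.33 ± 0.044 (SE, limma adjusted p = 0.000195) with no overlap. Psmb7 rose by 0.22 ± 0.054 (SE, limma adjusted p = 0.00927), from 10.85 to 11.10 in air rats to 10.98 to 11.31 in silica rats, and the groups overlapped. Psmb5 ran from 11.52 to 11.86 in air rats and from 11.62 to 11.92 in silica rats, a difference of 0.12 that did not pass (95% interval -0.026 to 0.27, limma adjusted p = 0.197). Whether the change in Psmb5 differed from that in Psmb6 or Psmb7 was not tested. Of the structural beta genes, Psmb2, Psmb4 and Psmb1 rose by 0.25, 0.21 and 0.18, and Psmb3 (0.051) did not pass.

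**Figure D2:**
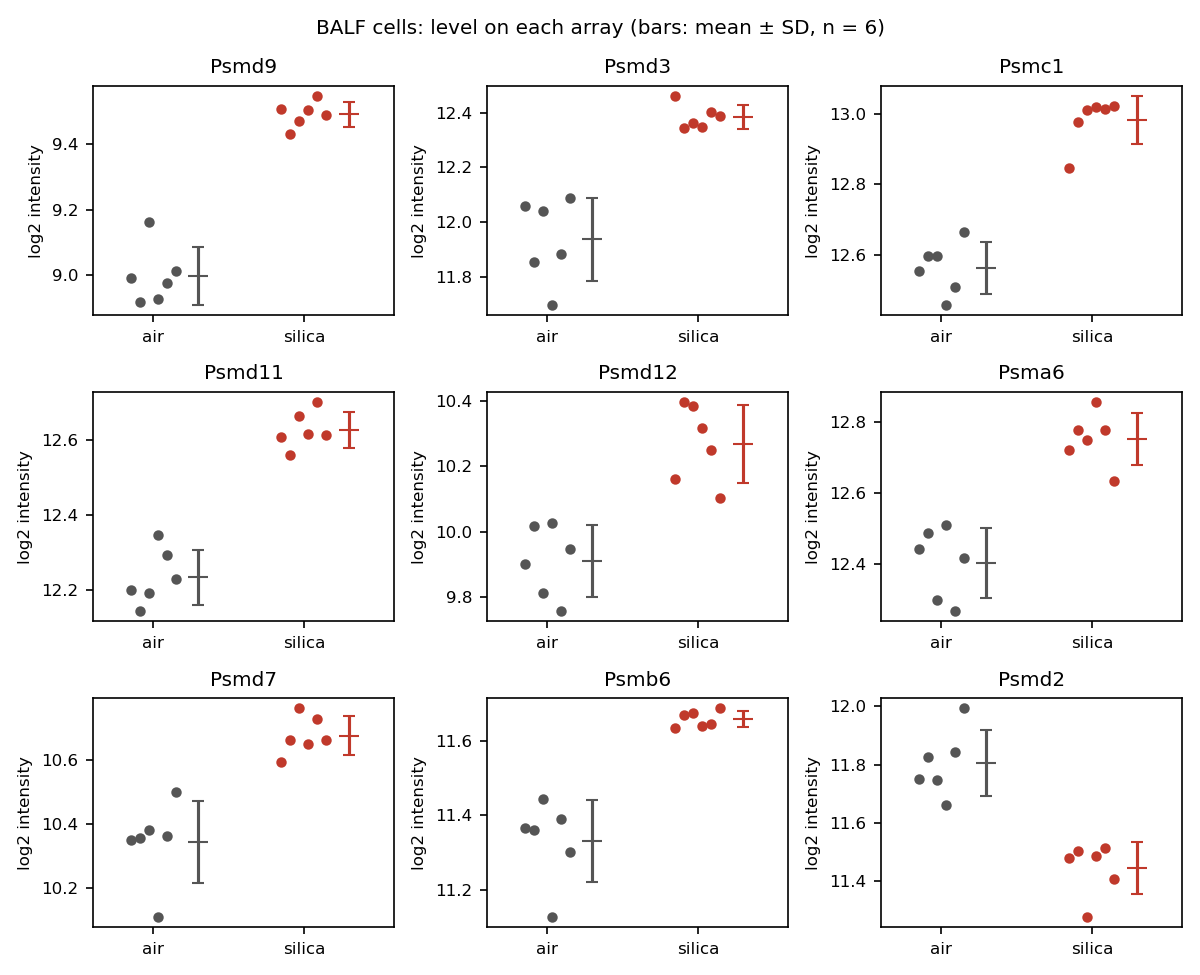
Level (log2 intensity) on each BALF array of the 8 genes with the largest rise and of Psmd2. Points are arrays, 6 per group, and bars are the mean and SD. In all 9 panels the air and silica points do not overlap, and Psmd2 is the one whose silica points lie below.

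The mean level over the 33 probes, a description of each array, was 10.65 to 10.71 on the air arrays and 10.80 to 10.89 on the silica arrays of BALF cells. Scaling mattered. With each array shifted to a common median in place of quantile normalization, 0 of 33 genes passed in either direction, as against 275 higher and 207 lower among all probes, although 28 of 33 changes were still positive with a median of 0.091. The 8 genes of largest rise were then at 0.26 (Psma6) to 0.39 (Psmd9), with limma adjusted p-values of 0.148 to 0.598, and Psmd2 was at -0.41 (limma adjusted p = 0.105). Under the other 23 settings run, these 8 genes and Psmd2 each passed. Of those settings 12 each left out 1 array, and most of the rest kept quantile normalization, unlike the scaling given next. Setting each array by the median of its commonly detected probes (those above background on every one of the 12 arrays) left 10 higher, all among the 19, and Psmd2 lower.

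Marker genes of other cells moved in the same arrays, and their part in the proteasome result was not tested. Among all tested probes, 15.2% were higher and 18.1% lower. Mean levels given here cover every gene of a marker list, those untested or undetected included. Of 10 tested markers of monocytes and recruited macrophages 6 were higher and 1 lower. The mean level of all 12 genes of that list was 9.51 to 9.71 in air rats and 10.32 to 10.69 in silica rats. Dividing-cell markers had 5 of 7 higher, at 8.51 to 8.74 against 8.90 to 9.14. Neutrophil markers had 5 of 8 higher (7.61 to 7.68 against 7.72 to 7.86), with Lcn2, Ltf, Np4 and S100a9 detected on no array. T and NK cell markers had 5 of 11 higher (7.53 to 7.59 against 7.61 to 7.95), and of 4 alveolar macrophage markers 2 were higher and 2 lower (10.17 to 10.34 against 10.16 to 10.31). Of 3 tested alveolar type 1 cell markers 2 were higher (7.43 to 7.48 against 7.88 to 7.97), with Ager, Cav1, Clic5 and Rtkn2 detected on no array. Both tested platelet markers were lower, and the mean of all 5 on that list was 8.42 to 8.53 against 8.21 to 8.35, with Gp1bb and Gp9 detected on no array. Alveolar type 2 markers had 1 of 3 higher and 1 lower, and endothelial markers 1 of 4 lower. Of the tested B and plasma cell, smooth muscle and fibroblast, and erythroid markers, none passed.

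**Figure D3:**
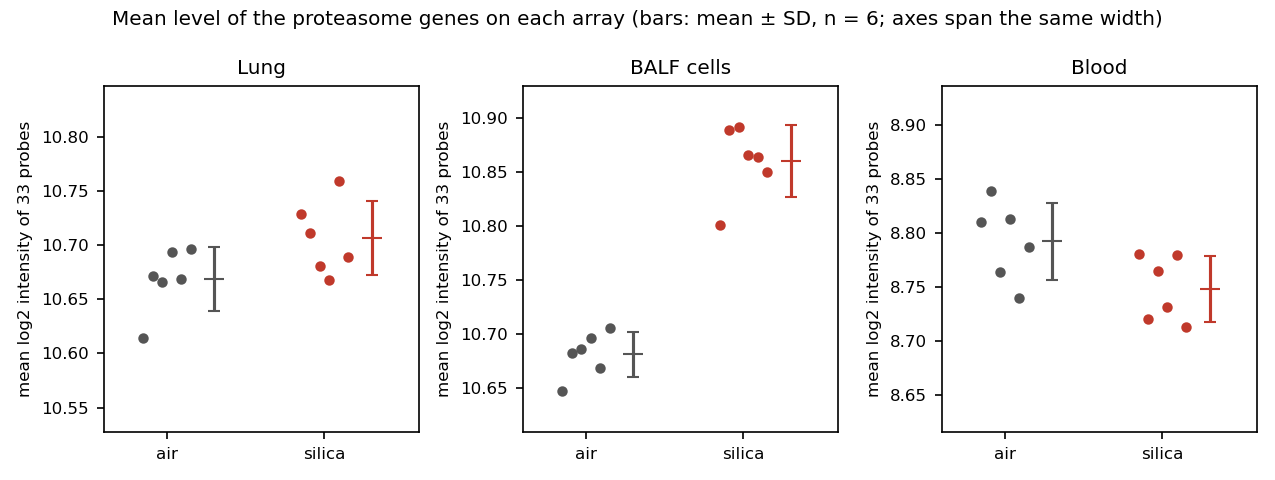
Mean log2 intensity over the 33 probes on each array of lung, BALF cells and blood, for air and silica rats. Points are arrays, 6 per group, bars are the mean and SD, and the 3 axes span the same width. In BALF cells the groups are apart, at 10.65 to 10.71 and 10.80 to 10.89. In lung (10.61 to 10.70 and 10.67 to 10.76) and in blood (8.74 to 8.84 and 8.71 to 8.78) they overlap.

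In whole lung 2 of 33 genes (6.06%) were higher and 0 lower, where 8.26% of 11399 tested probes were higher and 9.46% lower. Both encode beta subunits. Psmb6 ran from 11.40 to 11.70 in air rats (median 11.45) and from 11.52 to 11.77 in silica rats (median 11.72), a rise of 0.19 ± 0.058 (SE, limma adjusted p = 0.0408). Psmb1 ran from 13.03 to 13.22 (median 13.16) in air rats and from 13.18 to 13.32 (median 13.28) in silica rats, a rise of 0.12 ± 0.035 (SE, limma adjusted p = 0.0314). Both pairs of groups overlapped. All 7 beta ring changes were positive, from 0.027 to 0.19, Psmb5 (0.027) and Psmb7 (0.092) among them, without the other 5 passing. The sign was not particular to the beta ring: all 7 alpha ring changes (0.00087 to 0.10) and 24 of the 33 in all were positive. Psmd7, in contrast to its rise in lavage cells, was at -0.14 in lung (limma adjusted p = 0.0567). The median of the 33 changes was 0.024, against -0.0043 for all tested probes, and 0 genes had every silica array above or below every air array (4.83% and 4.35% of all tested probes).

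The lung calls changed with settings and with single arrays. With the median shift the median of the 33 changes was -0.13 and 2 of 33 were positive, so that lung gave no settled direction. Psmb6 was then at -0.0025, Psmb1 at -0.030, Psmb5 at -0.17 and Psmb7 at -0.12, none of them passing. Leaving out air replicate 4, silica replicate 1 or silica replicate 5 also left 0 genes higher. Without air replicate 1 or silica replicate 6 only Psmb6 passed, without air replicate 2, 5 or 6 only Psmb1, and without air replicate 3 only Psmb3. Without silica replicate 3 Psmb1 and Psmb4 passed, and without silica replicate 4 Psmb2 and Psmd1 were higher and Psmd7 lower. Without silica replicate 2 the same genes, Psmb1 and Psmb6, passed.

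Cell markers also moved in lung, and their part in the proteasome values was not tested. Among all tested probes, 8.26% were higher and 9.46% lower. Of 12 monocyte and recruited macrophage markers 8 were higher and 1 lower, with mean levels of 9.60 to 9.88 in air rats and 10.28 to 10.56 in silica rats. Dividing-cell markers had 4 of 7 higher (7.66 to 7.75 against 7.82 to 8.08) and alveolar type 2 markers 4 of 8 (12.70 to 13.02 against 12.94 to 13.15). Endothelial markers had 4 of 7 lower (11.35 to 11.52 against 10.92 to 11.20), and alveolar type 1 markers 3 of 7 (11.71 to 11.90 against 11.45 to 11.66). Smooth muscle and fibroblast markers had 3 of 9 lower, erythroid markers 3 of 9 and platelet markers 1 of 5. Neutrophil markers had 3 of 10 tested higher, and B and plasma cell markers 2 of 7. Of 4 tested alveolar macrophage markers 2 were higher and 1 lower, and 0 of 12 tested T and NK cell markers passed.

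In blood 0 of 29 genes passed in either direction, and limma called 0 of 8044 probes (0%). At an unadjusted p under 0.05, 1 of the 29 was lower and 0 higher, where 1072 of the 8044 probes passed, 455 lower and 617 higher. That gene was Psmc4, an ATPase, which ran from 9.10 to 9.27 in air rats (median 9.20) and from 8.94 to 9.21 in silica rats (median 9.04). Its difference was -0.13 ± 0.047 (SE, limma adjusted p = 0.272). Next in order of p came Psmb5 (-0.16), Psmb1 (-0.086), Psmb2 (-0.18) and Psmb6 (-0.16), with limma adjusted p-values of 0.404 to 0.636. Psmb7 was at -0.097. In 0 of the genes did the groups lie apart, upward or downward (0.609% and 0.622% of all tested probes). Of the 29 differences 24 were negative, with a median of -0.022, but with the median shift all 29 were positive with a median of 0.21, so that blood gave no settled direction.

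The effect of silica was then compared between tissues of the same rat. The rise was larger in lavage cells than in lung for 12 of 33 genes and smaller for 1, where 10.3% of 9131 probes were above and 12.2% below. Psmd7 differed most, by 0.47 ± 0.053 (SE, limma adjusted p = 1e-04), from 0.33 in BALF cells and -0.14 in lung. Psmd11, Psmc1, Psmd9, Psmd3 and Psmd12 followed, with differences of 0.41, 0.40, 0.39, 0.38 and 0.34, and Psma7, Psma6, Psmc4, Psma5, Psmb2 and Psmd6 completed the 12. Psmd2 was the exception at -0.46 ± 0.086 (SE, limma adjusted p = 0.00262), since it fell in lavage cells and stood at 0.10 in lung. For Psmb6 and Psmb1, the genes that passed in lung, no difference between the tissues passed.

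Against blood, which shares the BALF arrays with that comparison, 14 of 29 genes were above and 1 below (11% and 11.5% of 7180 probes). Psmd9 (0.56), Psmb6 (0.48), Psmd11 (0.47), Psma6 (0.46), Psmc1 (0.45) and Psmd3 (0.45) led, and Psmd2 was at -0.38. Between lung and blood Psmb6 alone of 29 was above, at 0.35 (limma adjusted p = 0.0402), where 5.06% of 7555 probes were above and 4.38% below. That call was lost on leaving out any of 7 of the 12 rats, and the difference was -0.22 with the median shift and -0.030 with scaling by commonly detected probes. A block on replicate number also lost the call, but it pairs different rats and so cannot weigh the call. With the median shift 0 genes passed in any of these comparisons, and the 6 leading differences between BALF cells and blood were 0.017 to 0.16. With the commonly detected probes 5 were above for BALF cells against lung and 0 against blood.

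**Figure D4:**
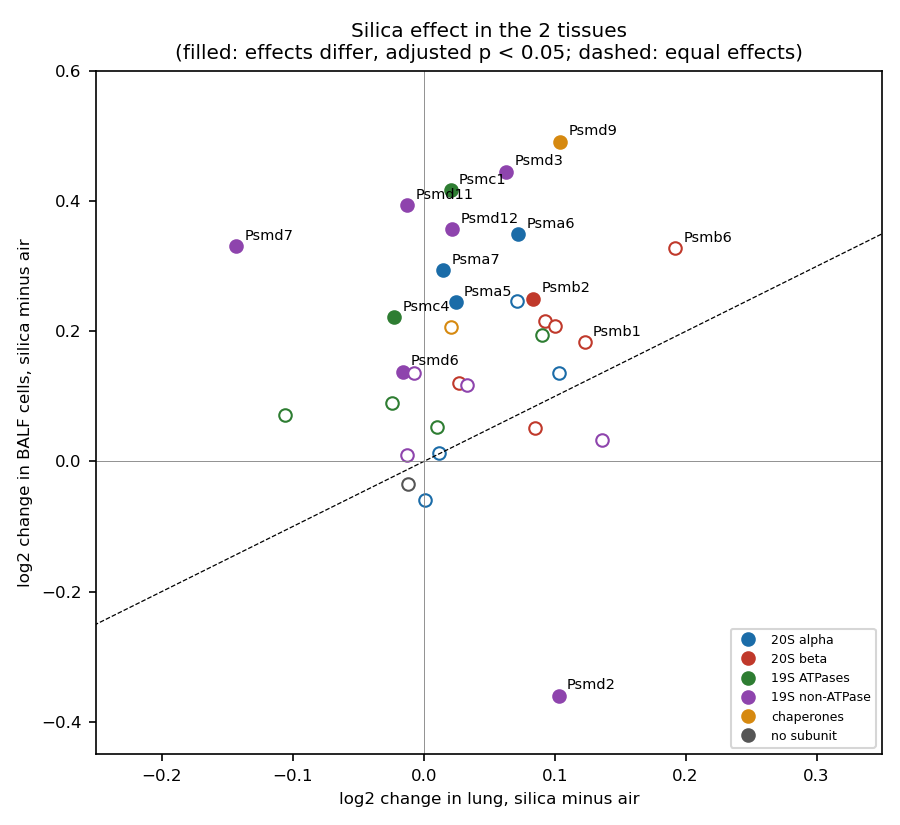
Silica effect (log2 change, silica minus air) in BALF cells on the vertical axis against that in lung on the horizontal axis for the 33 genes, coloured by role. Filled points have effects that differ between the tissues at an adjusted p under 0.05 (limma on each rat's difference), and the dashed line marks equal effects. The 12 filled points above the line and Psmd2 below it are labelled by name.

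Levels in the air rats, which had no silica, were compared over their 18 arrays, normalized together. In the tissue order of the means, lung and BALF cells lay above blood for most genes: 24 of 33 were above blood in lung and 24 in BALF cells (43.1% and 42.6% of 11612 probes), and 7 and 6 were below (38.7% and 32.5%). BALF cells were above lung for 18 and below for 7 (42.8% and 29.2%). Scaling again set much of this. Of the genes, 24 stayed above blood under all 5 settings run in BALF cells and 24 in lung, but between BALF cells and lung only 3 above and 1 below did so. Each count of 24 includes Psma3, Psmc6, Psmd8 and Psmc3ip, which no air blood array detected. These dim probes lay above blood by only 0.026 to 0.12 in lung and 0.063 to 0.23 in BALF cells.

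Psmd2 had the widest span of tissue means of the 33 genes in this normalization. Its mean level was 11.42 ± 0.11 (SD, n = 6) in BALF cells, 9.61 ± 0.093 in lung and 8.31 ± 0.12 in blood, and the 3 levels did not overlap. BALF cells exceeded lung by 1.80 and blood by 3.10 on the log2 scale, with the same sign under all 5 settings. Psmd4, a ubiquitin receptor of the base, ran the other way. It stood at 12.24 ± 0.16 (SD, n = 6) in blood, 10.40 ± 0.088 in BALF cells and 10.22 ± 0.097 in lung, with blood above both in every setting and no settled order between the other tissues. Psmd9 was at 11.00 ± 0.19 (SD, n = 6) in blood against 8.88 ± 0.075 in BALF cells and 8.19 ± 0.091 in lung, with lung below blood in all 5 settings. Psma6, Psmb6, Psmd5 and Psmd13 were also above lung and BALF cells in blood, by the joint quantile normalization, but turned in sign with the median shift and in the authors' values.

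**Figure D5:**
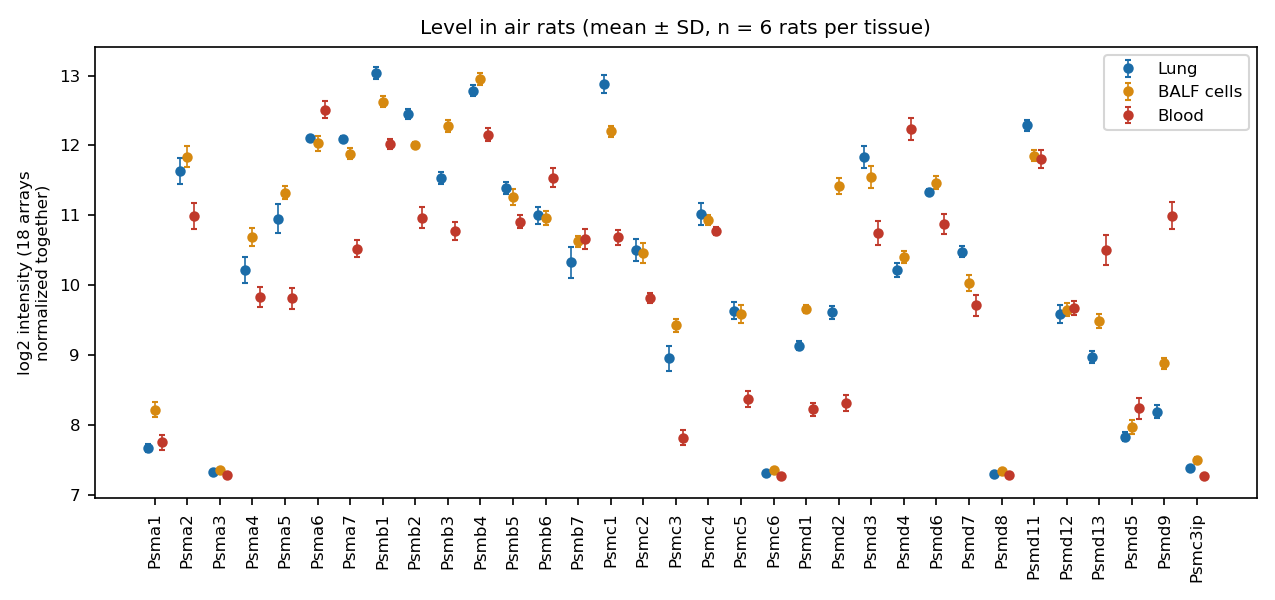
Level (log2 intensity) of the 33 genes in lung, BALF cells and blood of the 6 air rats, with the 18 arrays normalized together, ordered by role. Points are means and bars are SD. Psmd2 is highest in BALF cells (11.42), and Psmd4 (12.24) and Psmd9 are highest in blood, whereas most other genes are lowest there.

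The active sites exchanged in the immunoproteasome were compared within each array, as the log2 ratio of the inducible gene to the one it replaces. None of Psmb8, Psmb9, Psmb10, Psme1 and Psme2 passed in any tissue, and the 9 ratios were tested by an exact two-sided permutation test with Benjamini-Hochberg adjustment over the 9. In blood the ratio of Psmb8 to Psmb5 ran from 1.53 to 2.23 in air rats and from 2.37 to 2.84 in silica rats. It was higher by 0.56 (exact p = 0.0021645, the smallest this design allows, adjusted p = 0.0195), with every silica array above every air array. The ratio of Psmb9 to Psmb6 in blood was higher by 0.54, with overlapping groups (exact permutation p = 0.0130, adjusted p = 0.0584). In blood Psmb8 was at 0.40 and Psmb5 at -0.16 in the same fit. Without silica replicate 2, 3 or 5 the adjusted p of the Psmb8 ratio was 0.0584, and with the median shift its difference was 0.43 (adjusted p = 0.0974, exact permutation test). In lung and BALF cells the ratios differed by -0.17 to 0.19 and none passed.

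Genes that work with the proteasome were counted from pathway lists. The counts are to be read against the shares of all tested probes (15.2% higher and 18.1% lower in BALF cells, 8.26% and 9.46% in lung). All list values come from quantile normalization within a tissue, and no other scaling is given for them. With the median shift, only 275 of all probes were higher and 207 lower in BALF cells, and 37 and 40 in lung. How far the calls of list genes depend on scaling is therefore not shown here. Of 4 proteasome-bound proteins outside the name rule, Txnl1, a thioredoxin of the regulatory particle, and Usp14, its reversible deubiquitinase, rose in BALF cells by 0.33 and 0.20. Usp14 rose in lung as well, by 0.18. Of 15 shuttle and p97 genes 5 rose and 1 fell in BALF cells. Zfand2a, a stress-induced protein that binds the proteasome, ran from 9.37 to 9.84 in air rats (median 9.61) and from 10.65 to 11.23 in silica rats (median 10.98). It rose by 1.34 ± 0.11 (SE, limma adjusted p = 8.35e-06), with groups far apart. In lung it rose by 0.66 ± 0.074 (SE, limma adjusted p = 0.000288).

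Ubxn4, an adaptor of p97 at the endoplasmic reticulum, rose by 0.75 in BALF cells, Zfand5 (listed as Zfp216) by 0.44 and Vcp, which encodes p97, by 0.33. In lung 2 of the 15 rose, Zfand2a and the shuttle Ubqln1 (0.21). The regulators of proteasome genes had 2 of 11 higher and 2 lower in BALF cells, and 2 of 10 lower in lung, shares close to those of all probes in BALF cells. Nfe2l1 fell in both tissues, by 0.31 on the log2 scale in BALF cells (limma adjusted p = 0.000141) and by 0.33 in lung (limma adjusted p = 0.00554). It ran from 8.46 to 8.73 in air rats and from 8.24 to 8.37 in silica rats in BALF cells, with no overlap. Its protein is controlled after translation, which RNA does not show. The small Maf partners Mafg and Maff rose by 0.29 and 0.12 in BALF cells, and Mafk fell by 0.079 there and by 0.24 in lung.

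Among the ubiquitin-like genes in BALF cells Sumo3 rose by 0.26, while Sumo2 fell by 0.20 and Nedd8 fell by 0.16 on the log2 scale. Sumo2 and Nedd8 were the 2 of 11 tested genes of that list that fell, a share close to that of all probes. Of 22 conjugating enzymes 4 rose and 2 fell, a share of higher genes close to that of all probes. The largest were Ube2c, which acts in mitosis (0.72), Ube2e3 (0.52), Ube2g2 (-0.32) and Ube2l3 (-0.21). In lung 4 of 22 rose, led by Ube2f at 0.27, and Ube2e3 fell by 0.25 on the log2 scale, opposite to BALF cells. In lung the ubiquitin gene Ubb fell by 0.076 on the log2 scale, as 1 of 11 tested, again close to the share of all probes. Peptidases that finish the fragments had 2 of 8 higher in BALF cells (Lap3 by 0.19 and Thop1 by 0.093) and 1 lower, Tpp2, which fell by 0.20 on the log2 scale. In lung 1 of 8 rose. In blood 0 genes of these lists passed.

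A further 12 probes are annotated as similar to proteasome genes. Most were detected on no array, and in BALF cells none of those tested passed. A probe described as similar to activator subunit 4 was higher in lung, by 0.17 (limma adjusted p = 0.0432). Signals of near-identical copies could share a probe, so values of Psma2, Psma6, Psma7, Psmb3 and Psmb6, which have such entries on the array, carry that uncertainty.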

How the data were processed

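Total RNA of lung, BALF cells and blood of 12 rats (36 arrays) was measured on Illumina bead arrays. The deposited tables give, per probe and array, the mean bead intensity, a detection p-value set against negative controls, the standard error over beads and the number of beads (18 to 66 for the probes described). BeadStudio, lumi and limma are named in the submitters' processing notes, without versions or roles. The authors' processed table holds values on a log2-like scale, with medians of 7.61 to 7.62 in lung, 7.52 to 7.52 in BALF cells and 7.21 to 7.22 in blood. These correlated with the log2 intensities at 0.974 or more, so direction is settled, while the scale of dim probes is unknown. It served as an alternative.

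Intensities were background-corrected and quantile-normalized within a tissue with neqc (limma 3.58.1, R 4.3.3, offset 16). Probes with a detection p under 0.05 in 6 or more of a tissue's 12 arrays were tested with lmFit and eBayes, adjusted over all of them. Tissue differences used each rat's difference, air-rat levels the rat as a block. The fitting script was tested on simulated data. The number of arrays limits precision.

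Columns were matched to samples by the names in the descriptions. The silica blood array titled replicate 6 carries the number 8 in its description. Genes named with values were the called ones of largest change (up to 8 per tissue and direction, 6 per tissue difference, 4 per pathway list), otherwise the 5 of smallest p, and the catalytic and exchanged subunits. The genes and lists were chosen with earlier results of these data known. Further Psmd, Psme, Psmf and Psmg genes without a probe under these symbols were not analysed here, and 1 result of a pathway list is not reported here.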

Additional observations from a re-analysis of the deposited data

Results flagged for a closer look

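3 of 42 groups of 6 arrays examined for named genes held an array far from the other 5, and chance alone sets about 1 in 20 groups apart. In lung, Psmb6 stood at 11.70 in air replicate 1, against 11.40 to 11.51 in the others. In BALF cells, Psmc1 stood at 12.85 in silica replicate 1, against 12.98 to 13.02. In blood, Psmb7 stood at 8.67 in silica replicate 2, against 8.91 to 9.03.

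The silica effect differed between tissues of the same rats for several genes, by limma on each rat's difference. BALF cells exceeded lung by 0.47 for Psmd7, 0.41 for Psmd11, 0.40 for Psmc1, 0.39 for Psmd9, 0.38 for Psmd3 and 0.34 for Psmd12, and Psmd2 was at -0.46. BALF cells exceeded blood by 0.56 for Psmd9, 0.48 for Psmb6, 0.47 for Psmd11, 0.46 for Psma6, 0.45 for Psmc1 and 0.45 for Psmd3, and Psmd2 was at -0.38. Lung exceeded blood by 0.35 for Psmb6, a call lost without any of 7 of the 12 rats. The difference was -0.22 with the median shift and -0.030 with scaling by commonly detected probes. The replicate block also lost the call, but it pairs different rats and so cannot weigh the call.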

How the results depend on the processing

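With a median shift of each array the proteasome genes higher numbered 0 in lung and 0 in BALF cells, and the lower ones 0 in BALF cells. Their median change was then -0.13 in lung, 0.091 in BALF cells and 0.21 in blood, Psmb6 and Psmb1 in lung were at -0.0025 and -0.030, and calls among all probes were 57.1% higher in BALF cells against 45.7%. With scaling by commonly detected probes, 0 genes were higher in lung and 10 in BALF cells, the medians were 0.14 in BALF cells and 0.15 in blood, and 32.8% of lung calls were higher against 46.6%. In lung 1 gene was higher without background correction, 1 with trend and robust eBayes, 0 without the filter, 0 with the replicate block and 0 with a fold of at least 1.2, which left 9 in BALF cells. The cause was not tested.

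Between tissues the median shift left 0 above and 0 below for BALF cells against lung, 0 and 0 against blood, and 0 above for lung against blood, with Psmb6 at -0.22. Scaling by commonly detected probes left 5 and 0, 0 above against blood, and 0 above for lung against blood, with Psmb6 at -0.030. The replicate block left 0 above for lung against blood. In air rats the median shift gave 3 above and 1 below for BALF cells against lung, 1 below against blood and 2 below for lung against blood. The authors' values gave 10, 16, 2 and 2. The blood ratio of Psmb8 to Psmb5 was 0.43 with the median shift, and that of Psmb9 to Psmb6 was 0.56 without background correction, then past the threshold.

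Leaving out each array in turn gave 0 to 2 higher and 0 to 1 lower in lung (Psmd7 without silica replicate 4), with a median of 0.015 to 0.048. In BALF cells it gave 19 to 21 higher and 1 to 2 lower (Psmc3ip the second, without air replicate 1), with a median of 0.18 to 0.20. In blood it gave 0 to 0, with a median of -0.047 to -0.017. BALF cells against lung had 8 to 13 above and 1 to 1 below, against blood 11 to 15 and 1 to 1, and lung against blood 0 to 1 and 0 to 0 (0 without air replicates 1 to 4 or silica replicates 2, 3 and 5). In air rats the ranges were 15 to 18 and 7 to 8 for BALF cells against lung, 23 to 24 and 6 to 6 against blood, and 23 to 24 and 7 to 8 for lung against blood. The ratios to Psmb5, Psmb6 and Psmb7 ranged from 0.13 to 0.24, -0.034 to 0.22 and -2e-04 to 0.11 in lung, from 0.078 to 0.20, -0.18 to -0.018 and -0.23 to -0.095 in BALF cells, and from 0.47 to 0.61, 0.44 to 0.64 and 0.056 to 0.22 in blood. The blood ratio of Psmb9 to Psmb6 passed without air replicate 5 or silica replicate 1.

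Replicate numbers mark different rats, so the numbers pair nothing by design. Each probe's group mean was subtracted, and what remained was correlated between the air and silica arrays of the same number. These correlations were -0.40 to 0.33 in lung, -0.20 to 0.39 in BALF cells and -0.49 to 0.32 in blood. The replicate block gave 21 higher and 1 lower in BALF cells, 0 in blood, 8 above and 1 below for BALF cells against lung, and 10 and 1 against blood. Leaving the rat out of the air-rat fit, a choice made after seeing the data, moved no count by over 1.5 times. Of 510 values of named genes within tissues, 470 kept direction and side of the threshold, 38 no longer passed and 2 turned. Of 255 between tissues, 203, 50 and 2 did.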
